A study of Mus musculus with 8 samples.

Results

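The Groucho corepressors are a family of 6 mouse genes, Aes, Tle1, Tle2, Tle3, Tle4 and Tle6, among 23929 gene symbols measured. They were chosen by the FPKM of Aes, which was far higher in a pro-B cell line without the Eµ enhancer than in a wild-type line, so the levels of the family in that contrast are a description with no test. All 6 symbols were found, each at a single locus, and 4 of them (Aes, Tle3, Tle4 and Tle6) passed a filter of at least 1 FPKM in at least 2 of the 8 libraries. FPKM are fragments scaled by transcript length and sequencing depth, so levels can be compared approximately between genes as well as between libraries.

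Poly(A) RNA was sequenced from 4 lines of pro-B cells, bone marrow precursors that rearrange their immunoglobulin heavy chain (IgH) genes. The Eµ-deleted line carries the genotype Eµ-/-, the loss of the intronic IgH enhancer. CBE line 1 and CBE line 2 are labelled CBE-/- (1) and CBE-/- (2) and carry the genotype IGCR1-/-, that is, they lack the CTCF-binding elements of IGCR1, a regulatory region upstream of the D segments of IgH. The wild-type (WT) line carries no named deletion. All 4 lines were derived from 129SV bone marrow and grew untreated in serum-containing medium, and each gave 2 libraries. The Eµ-/- and WT genotypes are each represented by 1 line, so an effect of genotype and a difference between lines cannot be told apart, and nothing in the labels ties the 2 libraries of a line to separate cultures. In each RNA preparation, fewer expressing cells and less RNA per cell cannot be told apart either.

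Groucho/TLE proteins do not bind DNA themselves. DNA-bound repressors such as Hes, Runx, Pax5 and Tcf/Lef factors recruit them, and they in turn tetramerise through an amino-terminal domain and bring in histone deacetylases. In B cell precursors Pax5 is a known partner of Tle4. Aes is the short member of the family. It keeps the amino-terminal domain but lacks the carboxy-terminal WD repeats that contact many, though not all, of the recruiting factors. In several settings it opposes the full-length proteins. The longest annotated coding sequence of Aes has 197 codons, against 780 in Tle1, 767 in Tle2, 783 in Tle3, 773 in Tle4 and 581 in Tle6, in GENCODE M21 on GRCm38. Tle6 is a divergent member best known from the mouse oocyte, where it belongs to a maternal protein complex.

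In the mm9 coordinates of the files, 3 of the 6 genes lie side by side on chromosome 10. Aes is at chr10:81022188-81029116, Tle2 at chr10:81038031-81053590 and Tle6 at chr10:81053649-81063645. The end of Aes and the start of Tle2 are 8915 bp apart, and only 59 bp separate Tle2 from Tle6. The remaining loci are Tle1 at chr4:71770978-71861927, Tle3 at chr9:61220172-61266304 and Tle4 at chr19:14522561-14672473.

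Promoter sequences are shown for Tle6, which was lower in the CBE lines than in WT by a test, and for Tle3, on average the most abundant full-length member in the mutant lines. They are RefSeq sequences on GRCm38.p6, from 250 bases before to 50 bases after an annotated start, read 5′ to 3′ on the gene's own strand, and capitals mark the E-box CACGTG. Tle6 has another annotated start, and this window is at chr10:81600851-81601150 on the minus strand. The Tle3 window is at chr9:61372116-61372415 on the plus strand.
Tle6: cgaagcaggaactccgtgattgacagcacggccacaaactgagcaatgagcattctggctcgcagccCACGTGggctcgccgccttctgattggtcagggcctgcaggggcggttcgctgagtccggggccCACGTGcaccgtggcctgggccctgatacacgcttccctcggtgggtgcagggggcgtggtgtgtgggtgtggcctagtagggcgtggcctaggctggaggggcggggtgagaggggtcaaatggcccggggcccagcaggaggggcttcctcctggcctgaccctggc
Tle3: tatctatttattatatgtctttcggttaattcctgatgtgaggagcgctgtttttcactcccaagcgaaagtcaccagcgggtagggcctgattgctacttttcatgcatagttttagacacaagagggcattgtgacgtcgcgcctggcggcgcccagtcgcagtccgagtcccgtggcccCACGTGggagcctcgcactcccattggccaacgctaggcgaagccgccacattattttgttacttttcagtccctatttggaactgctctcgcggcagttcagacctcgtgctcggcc
The Tle6 window holds 2 E-boxes and the Tle3 window 1, and an E-box is present in 7.15% of 32851 RefSeq promoter windows of the same length. A RUNX motif (TGTGGT) occurs in 16.8% and a TCF/LEF motif (CTTTGA) in 16.0% of those windows, and neither occurs in either printed window. Both strands were searched, and CACGTG reads the same on both. A match of letters is a description and not evidence of a bound site, and no match says only that these letters are not in these windows. The GC content was 68.0% in the Tle6 window and 53.7% in the Tle3 window, against a median of 52.7% over all windows. The other Tle6 window holds none of the 3 motifs, and of the pair of Tle4 windows 1 holds an E-box. No promoter of Aes is shown.

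All 11 markers of pro-B cells, among them Cd79a, Pax5 and Ebf1, had at least 1 FPKM in both libraries of each mutant line, against 9 of 11 in WT. The exceptions in WT were the recombinase genes: Rag1 had 5.83 and 7.53 FPKM in Eµ-deleted cells, 13.8 and 7.41 in CBE line 1 and 8.72 and 3.77 in CBE line 2, against 0.0427 and 0.0295 FPKM in WT cells. Rag2 lay between 1.93 and 5.38 FPKM in the mutant libraries, against 0.0207 and 0.00543 FPKM in WT cells. Of 6 T cell markers only Cd2 reached 1 FPKM, with 66.9 to 186 FPKM over the 8 libraries. Cd3e, Cd4 and Cd8a were listed at 0 in every library, and nothing about T cells is read from Cd2 alone. Summed myeloid markers ranged from 1.61 to 8.85 FPKM over the 8 libraries, summed erythroid markers stayed at or under 0.247 FPKM, and of 4 stromal markers only Vim, which many blood cells express, was present. The reads implied by the deposited intervals came to 31.3 to 49.5 M per library, and log2 expression profiles correlated at 0.978 to 0.992 within lines (4 pairs) and at 0.926 to 0.964 between lines (24 pairs). Whether the marker differences bear on the levels of the family was not tested.

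Aes, the short member, spanned the widest range of the family. It had 43.2 and 37.1 FPKM in Eµ-deleted cells, 2.56 and 3.63 FPKM in CBE line 1, 12.4 and 12.3 FPKM in CBE line 2, and 0.0436 and 0.0137 FPKM in WT cells. The lines did not overlap, and their order was Eµ-deleted, CBE line 2, CBE line 1 and WT. The deposited intervals of Aes ran from 40.9 to 45.6 FPKM and from 35.1 to 39.1 FPKM in the Eµ-deleted libraries, and in both WT libraries they reached down to 0. The reads behind these values, as implied by the intervals, were 1355 and 1378 in Eµ-deleted cells, 221 and 217 reads for CBE line 1, 649 and 667 reads for CBE line 2, and 3.64 and 0.411 in WT cells. These are estimates and not counted reads, since they were not in proportion to FPKM between libraries. In replicate 1 they were 1355 at 43.2 FPKM in Eµ-deleted cells and 221 at 2.56 FPKM in CBE line 1. By this estimate the WT level of Aes rests on a handful of reads, and no ratio to it is given. On the log2(FPKM + 1) scale, which understates the change of a gene with low values, Aes was higher by 5.32 ± 0.15 (SE) in Eµ-deleted cells than in WT cells, by 1.98 ± 0.15 in CBE line 1 than in WT, and by 3.70 ± 0.15 in CBE line 2 than in WT. These differences share the WT libraries with the contrast on which Aes was picked. The difference of 2.48 ± 0.13 between Eµ-deleted cells and the CBE lines shares the Eµ-deleted libraries with it, so none of them is tested.

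**Figure D1:**
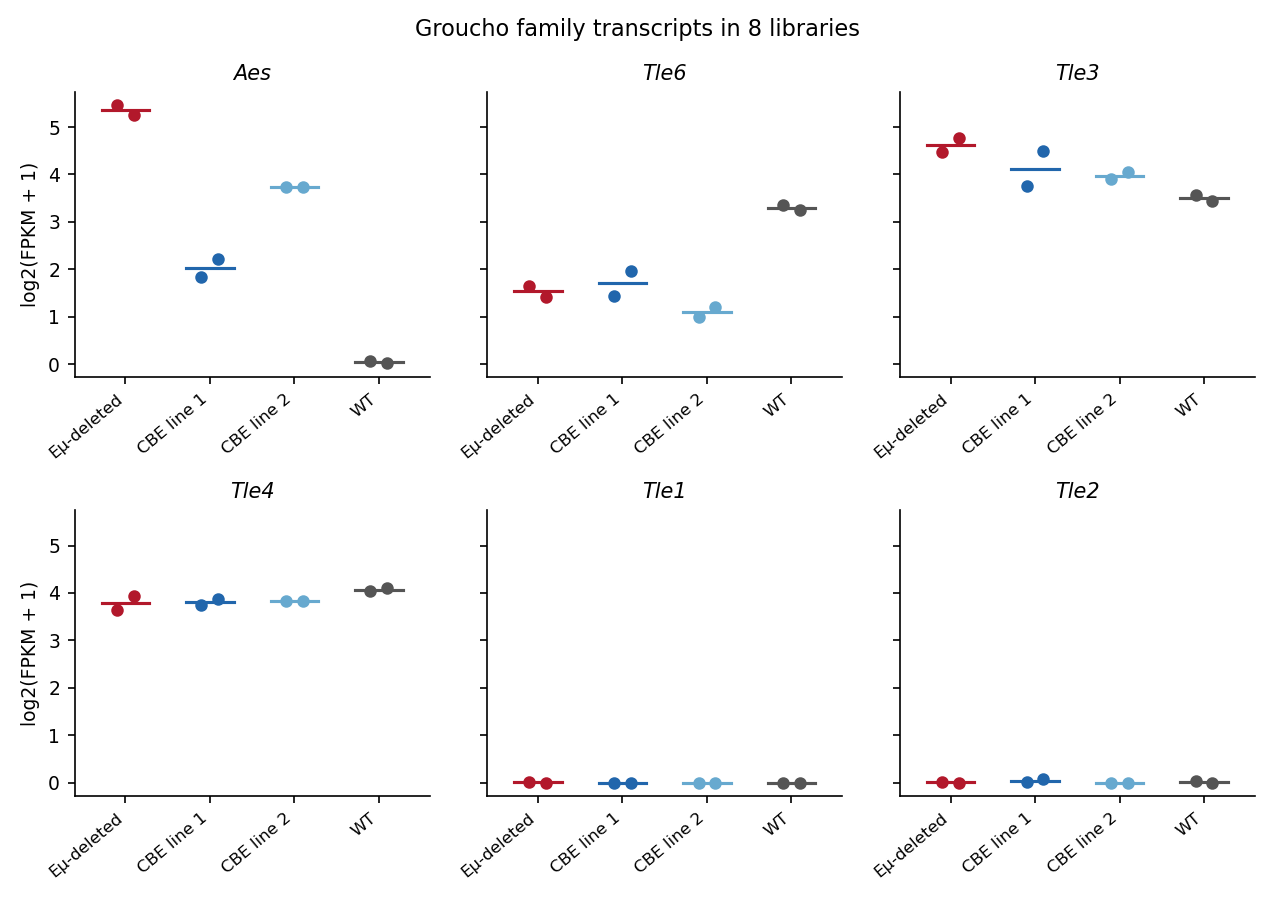
Each panel plots the log2(FPKM + 1) of 1 family gene in the Eµ-deleted line, CBE line 1, CBE line 2 and WT. Points are the 2 libraries of a line and bars their mean. Aes is near 0 in WT and present in the other lines, Tle6 is highest in WT, Tle3 and Tle4 are present in every library, and Tle1 and Tle2 lie near 0 throughout.

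The libraries of the pair of CBE lines took no part in the choice of the family, and there Aes was tested. It averaged 3.10 ± 0.757 FPKM in CBE line 1 and 12.3 ± 0.0783 FPKM in CBE line 2 (SD, n = 2 each), a log2 difference of -1.72 ± 0.15 (SE, 95% interval -2.07 to -1.37, limma adjusted p = 0.000787). Both libraries of CBE line 1 were below both of CBE line 2. Aes was the 1 of 4 tested members that passed the threshold of an adjusted p of 0.05 between these lines, where 10.2% of all 10479 tested genes did. The call held in every alternative, and without any single library the log2 difference lay between -1.91 and -1.53. The CBE lines carry the same labelled genotype, so this is a difference between lines of a shared genotype.

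Tle6, the neighbour of Aes on chromosome 10, ran the other way. Its level was 2.15 and 1.68 FPKM in Eµ-deleted cells, 1.72 and 2.91 FPKM in CBE line 1, 0.981 and 1.32 FPKM in CBE line 2, and 9.20 and 8.48 FPKM in WT cells. Every mutant library was below both WT libraries. Tle6 fell in the CBE lines relative to WT, with a difference of -1.90 on the log2(FPKM + 1) scale (SE 0.16, 95% interval -2.29 to -1.50, limma adjusted p = 0.000347). It was the 1 of 3 members tested in that comparison to pass the threshold, in a comparison where 22.3% of all tested genes passed and 9.78% of all tested genes were called lower. Taken singly, the difference from WT was -1.59 in CBE line 1 (SE 0.19, limma adjusted p = 0.00177) and -2.20 in CBE line 2 (SE 0.19, limma adjusted p = 0.000352), where 19.4% and 18.7% of all tested genes passed and 8.54% and 8.19% of all tested genes were called lower. Without any single library the joint difference stayed between -2.03 and -1.76 and was called each time. In Eµ-deleted cells against WT cells the log2 difference of Tle6 was -1.76, which is not tested, in a comparison where 21.8% of all tested genes were called. Between CBE line 1 and CBE line 2 the difference was 0.60 (95% interval 0.15 to 1.06, limma adjusted p = 0.109). Leaving out CBE line 1 replicate 1 brought it to 0.87 and past the threshold (adjusted p = 0.0398). Eµ-deleted cells and the CBE lines overlapped in Tle6, with a difference of 0.14 (95% interval -0.26 to 0.53, limma adjusted p = 0.632).

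Tle3 was on average the most abundant full-length corepressor of each mutant line. It had 21.3 and 26.3 FPKM in Eµ-deleted cells, 12.5 and 21.4 FPKM in CBE line 1, 13.9 and 15.6 FPKM in CBE line 2, and 10.8 and 9.89 FPKM in WT cells. All mutant libraries were above both WT libraries, but the libraries of CBE line 1 were far apart and enclosed those of CBE line 2. The log2 difference of the CBE lines from WT was 0.54 (SE 0.20, 95% interval 0.05 to 1.03) and did not pass the threshold (limma adjusted p = 0.111). The libraries of a line are numbered 1 and 2, and with that number as a block the same difference had an adjusted p of 0.0487. Without CBE line 1 replicate 1 it was 0.72 with an adjusted p of 0.0136, and CBE line 1 alone then differed from WT by 0.98 (adjusted p = 0.0173) in place of 0.61 (adjusted p = 0.124). CBE line 2 differed from WT by 0.47 (adjusted p = 0.233), or 0.0210 with only those 4 libraries in the fit. Between Eµ-deleted cells and the CBE lines the difference was 0.58 (95% interval 0.09 to 1.07, limma adjusted p = 0.124), in a comparison where 12.4% of all genes and none of the 3 members tested passed. It passed when CBE line 1 replicate 2 was left out (0.76, adjusted p = 0.0189). Without adjustment Tle3 alone of them lay under 0.05 there, at 0.0264 in the same limma fit. The Eµ-deleted line exceeded WT by 1.12 ± 0.24 (SE), untested.

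Tle4, the Pax5 partner, was the steadiest of the expressed members. It had 11.4 and 14.3 FPKM in Eµ-deleted cells, 12.4 and 13.7 FPKM in CBE line 1, 13.3 and 13.2 FPKM in CBE line 2, and 15.5 and 16.1 FPKM in WT cells. WT held the highest values, without overlap, and the 3 mutant lines overlapped. The log2 difference of the CBE lines from WT was -0.25 (SE 0.11, 95% interval -0.50 to 0.00, limma adjusted p = 0.148), so a fall beyond 0.50 lies outside the interval. For CBE line 2 alone it was -0.24 (adjusted p = 0.24, or 0.0471 with only those 4 libraries in the fit). The differences of Tle4 between Eµ-deleted cells and the CBE lines (-0.04, 95% interval -0.30 to 0.21) and between CBE line 1 and CBE line 2 (-0.02, 95% interval -0.32 to 0.27) were smaller than their errors.

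Tle1 and Tle2 were close to undetected. Tle1 did not exceed 0.00886 FPKM in any library and was listed at 0 in both WT libraries. Tle2, which lies between Aes and Tle6, reached 0.0522 FPKM in CBE line 1 replicate 2, on an implied 5.54 reads, and was lower elsewhere. Neither was tested. So of the 3 neighbours on chromosome 10, Aes was higher and Tle6 lower in all mutant libraries than in WT, while the gene between them stayed near 0 in all 8.

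**Figure D2:**
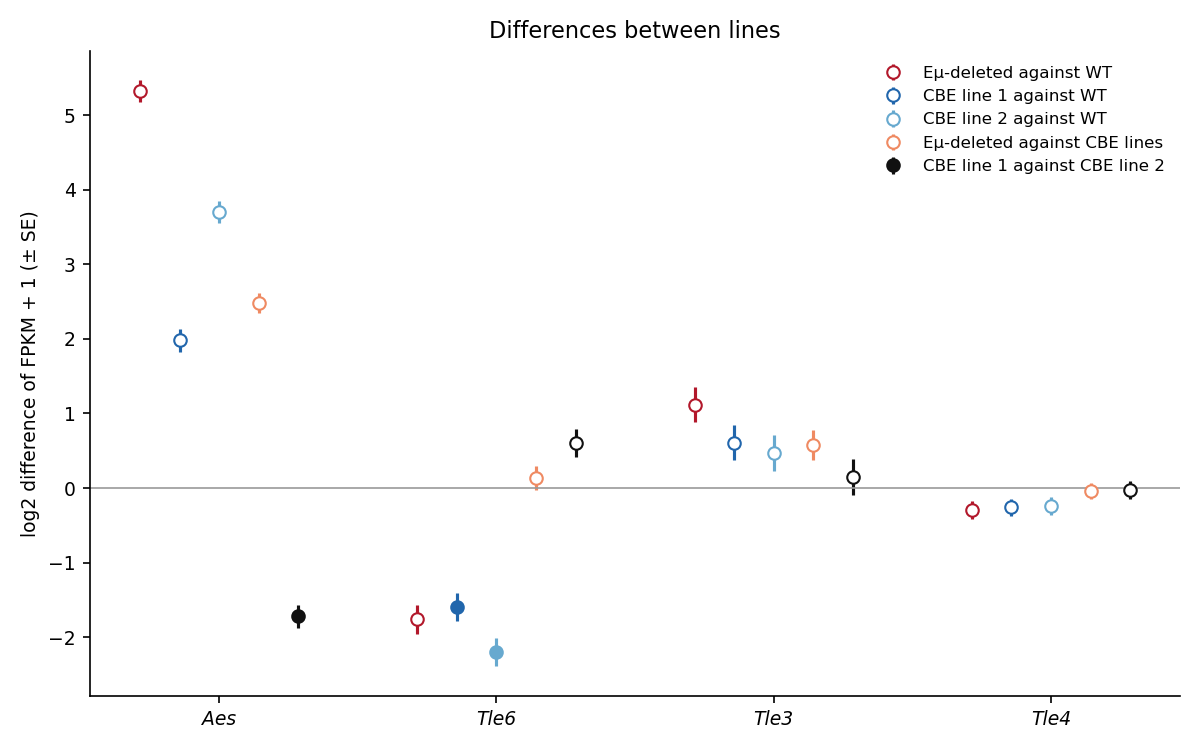
Log2 differences of FPKM + 1 with their SE for the 4 members that passed the filter, in 5 comparisons of lines. Filled points passed a limma adjusted p of 0.05, and open points did not pass or were not tested, as for every member in Eµ-deleted against WT and for Aes against WT or in Eµ-deleted cells. Filled points are Tle6 in CBE line 1 and CBE line 2 against WT (-1.59 and -2.20) and Aes in CBE line 1 against CBE line 2 (-1.72).

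The lines differed in the make-up of the family as well as in its sum. The 6 genes together had 78.0 and 79.3 FPKM in Eµ-deleted cells, 29.2 and 41.7 FPKM in CBE line 1, 40.5 and 42.4 FPKM in CBE line 2, and 35.7 and 34.5 FPKM in WT cells. Aes supplied 55.4% and 46.7% of that sum in Eµ-deleted cells, 8.77% and 8.71% of it in CBE line 1, 30.6% and 29.0% of it in CBE line 2, and 0.122% and 0.0396% in WT cells. The share of Tle6 was 2.75% and 2.11% in Eµ-deleted cells, 5.88% and 6.98% for CBE line 1, 2.42% and 3.11% for CBE line 2, and 25.8% and 24.6% in WT cells. In both libraries of each line the order by FPKM was the same. It was Aes, Tle3, Tle4 and Tle6 in Eµ-deleted cells, Tle3, Tle4, Aes and Tle6 in both CBE lines, and Tle4, Tle3, Tle6 and Aes in WT cells. In CBE line 1 replicate 1 and CBE line 2 replicate 1, Tle3 and Tle4 differed by less than the SD of Tle3 in the line. The FPKM of Aes for each FPKM of Tle3 and Tle4 combined was 1.32 and 0.912 in Eµ-deleted cells, 0.103 and 0.104 for CBE line 1, 0.457 and 0.427 for CBE line 2, and 0.00165 and 0.000526 in WT cells. Within CBE line 1 this ratio was nearly the same in both libraries although both parts of it differed between them. These shares are a description, since the Aes level enters each of them.

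**Figure D3:**
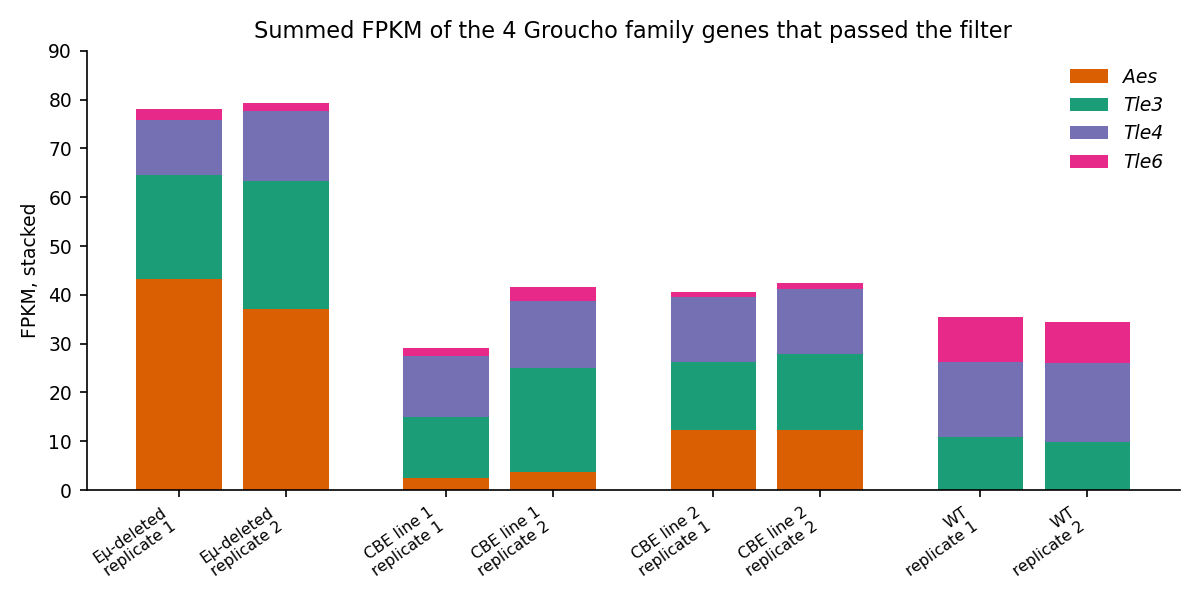
Stacked bars give the FPKM of Aes, Tle3, Tle4 and Tle6 in each of the 8 libraries, with the lines ordered Eµ-deleted, CBE line 1, CBE line 2 and WT. Aes is the largest part in both Eµ-deleted libraries and not visible in WT, where Tle6 makes up 25.8% and 24.6% of the family sum.

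The surroundings of Aes were examined for the same differences. Within 500 kb on either side 47 symbols start, 33 of them tested and 31 of these outside the family. In Eµ-deleted cells against WT cells 2 of the 31 rose and 4 fell (6.45% and 12.9%, against 11.3% and 10.4% of all tested genes), and in the CBE lines against WT 5 rose and 5 fell (16.1% each, against 12.5% and 9.78% of all tested genes). Their median log2 difference was -0.24 in Eµ-deleted cells and -0.18 in the CBE lines, against medians of 0.01 and 0.03 over all tested genes. Of the 5 rises in the CBE lines 2, Matk and Smim24, reached 1 FPKM in no library outside the CBE lines and so could only be called higher. With the replicate block 10 of the 31 fell in Eµ-deleted cells. That fit called 3563 of all tested genes there in either direction, against 2284 without the block. Without the block, the 4 falls became 7 without Eµ-deleted replicate 1, 1 without either library of CBE line 2 and 0 without either WT library. The 5 falls in the CBE lines became 2 when replicate 1 of either CBE line was left out, and 1 without CBE line 2 replicate 2 or either WT library. The 2 rises in Eµ-deleted cells, Apba3 and Zfp781, became 1 without Eµ-deleted replicate 2 or any single library of CBE line 2 or WT.

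The nearest tested neighbour outside the family, Gna11, a G protein alpha subunit that starts 30.7 kb before Aes, had 4.58 and 5.48 FPKM in Eµ-deleted cells, 4.24 and 5.93 FPKM in CBE line 1, 5.83 and 6.33 FPKM in CBE line 2, and 6.52 and 6.36 FPKM in WT cells. It was not called in Eµ-deleted cells against WT (log2 difference -0.31, limma adjusted p = 0.201) or in the CBE lines against WT (-0.19, adjusted p = 0.371). Gna15, a related subunit of blood cells that starts 57.1 kb before Aes, had 24.6 and 23.7 FPKM in Eµ-deleted cells, 24.4 and 26.5 FPKM in CBE line 1, 12.7 and 12.1 FPKM in CBE line 2, and 34.6 and 23.8 FPKM in WT cells. CBE line 2 lay below every other library, and CBE line 1 overlapped WT. Gna15 fell in CBE line 2 against WT (-1.15, limma adjusted p = 0.00396), also without any single library, and was not called in CBE line 1 (-0.17, adjusted p = 0.543). The CBE lines jointly differed from WT by -0.66 (adjusted p = 0.0199). That joint call was lost without CBE line 1 replicate 1, WT replicate 1 or either library of CBE line 2, with adjusted p from 0.00707 to 0.0992 over the 8 leave-outs. Smim24, a small membrane protein gene 166 kb before Aes, had 0.0451 and 0.237 FPKM in Eµ-deleted cells, 17.3 and 19.0 FPKM in CBE line 1, 10.9 and 10.7 FPKM in CBE line 2, and 0.0296 and 0.0465 FPKM in WT cells. It passed the filter through the CBE lines alone, which fixed the direction of its differences there, so the 3.85 of the CBE lines against WT and the -3.72 of Eµ-deleted cells against the CBE lines are given without a test. Smim24 was not called in Eµ-deleted cells against WT (0.13, limma adjusted p = 0.439). Tbxa2r, the thromboxane receptor, 231 kb before Aes, was higher in the CBE lines than in WT (0.89, limma adjusted p = 0.00354) and lower in Eµ-deleted cells than in the CBE lines (-1.31, adjusted p = 0.00109). Both calls of Tbxa2r held without any single library. Apba3, an adaptor protein gene 291 kb before Aes, rose in the CBE lines against WT (1.59, adjusted p = 0.00127) with every library left out in turn. In Eµ-deleted cells it also rose against WT (0.96, adjusted p = 0.0219), but that call was lost without Eµ-deleted replicate 2 or any single library of CBE line 2 or WT.

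**Figure D4:**
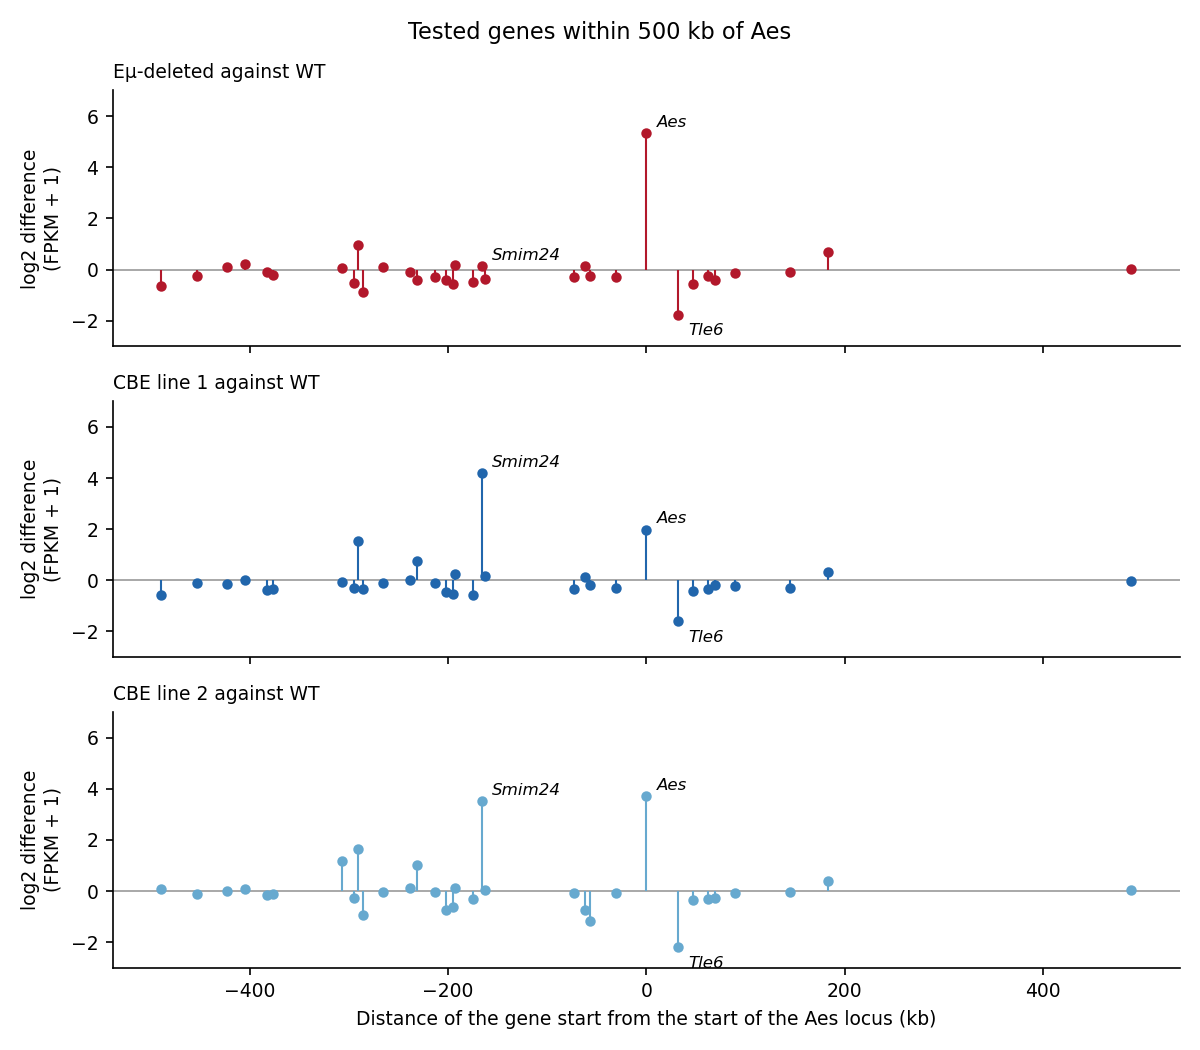
Log2 differences of FPKM + 1 from WT for the 33 tested genes whose start lies within 500 kb of Aes, by distance from the start of Aes in kb, in Eµ-deleted cells, CBE line 1 and CBE line 2 from top to bottom. Aes and Tle6 differ from WT in opposite directions in all 3 panels (5.32 and -1.76 in Eµ-deleted cells), and Smim24 lies above WT by 4.20 in CBE line 1 and 3.51 in CBE line 2.

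Of 26 DNA-binding factors known to recruit Groucho/TLE proteins, 9 were expressed highly enough to be tested. In the CBE lines 4 of the 9 rose against WT and none fell (44.4%, where 12.5% of all tested genes rose), and in Eµ-deleted cells 3 rose and none fell (33.3%, where 11.3% of all tested genes rose). The medians of the 9 log2 differences were 0.47 in the CBE lines and 0.73 in Eµ-deleted cells, against 0.03 and 0.01 over all tested genes. Of the genes that rose, Runx3, Tcf7 and Hhex in the CBE lines, and Runx3 and Tcf7 in Eµ-deleted cells, reached 1 FPKM in no WT library. They were tested only because of the mutant lines and could only be called higher than WT, so these shares and medians are not read as a property of the recruiting factors. Of all tested genes, 457 of the 1314 called higher in the CBE lines and 334 of the 1189 in Eµ-deleted cells likewise had no WT library at 1 FPKM. With the replicate block 5 rose in Eµ-deleted cells, and so did 5 without Eµ-deleted replicate 1 or either library of CBE line 1. In the CBE lines 1 of the 9 fell with the block. At an unadjusted p under 0.05, 5 of the 9 differed in each of these comparisons, Runx3 and Tcf7 among them. The share of all tested genes at that threshold was not computed, so nothing is read from these counts.

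Runx3, a Runt-domain factor whose carboxy-terminal motif binds Groucho/TLE proteins, had 9.27 and 15.5 FPKM in Eµ-deleted cells, 9.89 and 14.0 FPKM in CBE line 1, 8.75 and 10.5 FPKM in CBE line 2, and 0.00598 and 0.00469 FPKM in WT cells. All libraries of the mutant lines were above WT. As Runx3 passed the filter in the mutant lines alone, no other direction was possible. Its differences of 3.69 in Eµ-deleted cells and 3.53 in the CBE lines against WT are given without a test. The related Runx1 was present everywhere, at 12.9 to 19.7 FPKM. It was not called against WT in Eµ-deleted cells (0.32, limma adjusted p = 0.142) or the CBE lines (-0.17, limma adjusted p = 0.35). Tcf7, which represses Wnt targets with Groucho/TLE until beta-catenin binds, had 1.98 and 3.03 FPKM in Eµ-deleted cells, 1.98 and 1.97 FPKM in CBE line 1, 4.40 and 4.70 FPKM in CBE line 2, and 0.0491 and 0.0257 FPKM in WT cells. Tcf7 too passed the filter in the mutant lines alone, which fixed its direction against WT. Its differences of 1.74 in Eµ-deleted cells and 1.97 in the CBE lines against WT are given without a test. Lef1, the other abundant Tcf/Lef factor, lay between 39.7 and 57.9 FPKM in all 8 libraries.

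Hes1, the Notch-responsive repressor that carries a WRPW motif for Groucho/TLE, had 6.47 and 13.9 FPKM in Eµ-deleted cells, 6.20 and 18.5 FPKM in CBE line 1, 6.75 and 14.9 FPKM in CBE line 2, and 0.689 and 1.18 FPKM in WT cells. In each line the library numbered 2 was the higher. Hes1 rose in Eµ-deleted cells by 2.46 (limma adjusted p = 0.0259) and in the CBE lines by 2.58 (adjusted p = 0.0115). The call in Eµ-deleted cells was lost without Eµ-deleted replicate 2 or either WT library, and that of the CBE lines without either WT library. Hhex, a homeodomain repressor needed for B cell development, had 0.664 and 0.856 FPKM in Eµ-deleted cells, 7.40 and 13.9 FPKM in CBE line 1, 2.56 and 1.58 FPKM in CBE line 2, and 0.0211 and 0.0110 FPKM in WT cells. It reached 1 FPKM in the CBE lines alone, so the differences of 2.52 in the CBE lines against WT and -1.73 in Eµ-deleted cells against the CBE lines are given without a test. Pax5, which commits cells to the B lineage, lay between 38.3 and 65.8 FPKM, lowest in WT. It was not called against WT in Eµ-deleted cells (0.56, limma adjusted p = 0.0525), in the CBE lines jointly (0.47, adjusted p = 0.0572) or in CBE line 1 (0.27, adjusted p = 0.307). In CBE line 2 it rose by 0.67 (adjusted p = 0.0317), a call that was lost without either library of CBE line 2 or WT.

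**Figure D5:**
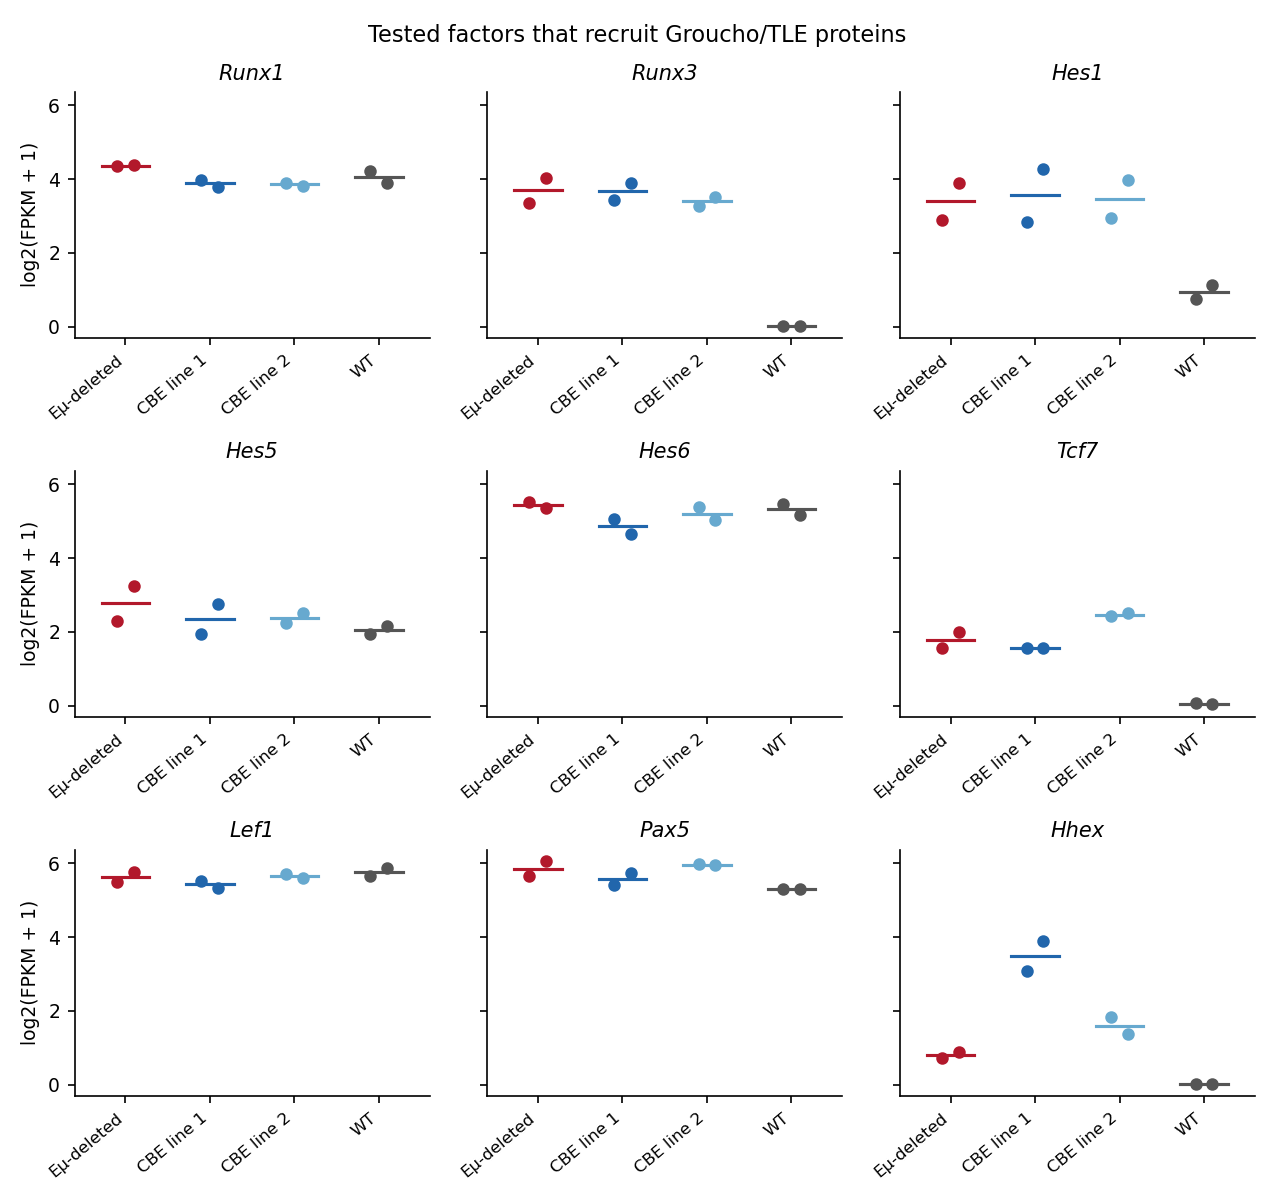
Log2(FPKM + 1) of the 9 tested factors that recruit Groucho/TLE proteins, in the Eµ-deleted line, CBE line 1, CBE line 2 and WT. Points are the 2 libraries of a line and bars their mean. Runx3 and Tcf7 are near 0 in WT and present in the other lines, whereas Runx1, Hes6, Lef1 and Pax5 are well above 0 in all 8 libraries.

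Of 13 histone deacetylases and other corepressor components, which carry out repression, 12 were tested, each with at least 1 FPKM in all 8 libraries. Ctbp2, the exception, lay between 0.00660 and 0.0531 FPKM. In Eµ-deleted cells 3 rose against WT and 1 fell (25.0% and 8.33%, where 11.3% and 10.4% of all tested genes did), with a median log2 difference of 0.23 against 0.01 over all tested genes. In the CBE lines 1 rose and none fell (8.33% higher, where 12.5% of all tested genes rose), with a median of 0.14 against 0.03. Hdac3, the deacetylase of NCoR complexes, had 51.3 and 44.2 FPKM in Eµ-deleted cells, 87.5 and 75.0 FPKM in CBE line 1, 62.0 and 57.2 FPKM in CBE line 2, and 74.8 and 72.4 FPKM in WT cells. It fell in Eµ-deleted cells against WT (log2 difference -0.62, limma adjusted p = 0.0131), a call that was lost without either WT library. Without Eµ-deleted replicate 1 there were 2 falls. Hdac1, whose Drosophila counterpart binds Groucho, lay between 28.8 and 41.2 FPKM and differed by -0.01 in Eµ-deleted cells and 0.19 in the CBE lines, neither called. The 3 rises in Eµ-deleted cells, Ncor1, Tbl1xr1 and Sin3a, ranged from 0.33 to 0.38. Their number depended on every library: it was 5 without Eµ-deleted replicate 1 and with the replicate block, 1 without either library of CBE line 1, and 0 without any 1 of the other libraries. Sin3a, the 1 rise in the CBE lines (0.26, adjusted p = 0.0474), was not called without any single library of the CBE lines or WT.

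All 11 enzymes that modify Groucho/TLE proteins were tested, and 3 rose in Eµ-deleted cells and 2 in the CBE lines against WT, with none lower (27.3% and 18.2%, where 11.3% and 12.5% of all tested genes rose). The medians were 0.23 and 0.20, against 0.01 and 0.03 over all tested genes. Mapk3, a MAP kinase, had 50.2 and 52.1 FPKM in Eµ-deleted cells, 41.3 and 44.8 FPKM in CBE line 1, 38.9 and 39.8 FPKM in CBE line 2, and 36.1 and 34.2 FPKM in WT cells. It rose in Eµ-deleted cells by 0.53 (limma adjusted p = 0.00711), a call that was lost without WT replicate 2. Csnk2a2, a catalytic subunit of casein kinase 2, rose by 0.38 in Eµ-deleted cells (limma adjusted p = 0.042), a call that was lost in 7 of 8 leave-outs of 1 library. Xiap, a ubiquitin ligase, rose by 0.34 in the CBE lines (limma adjusted p = 0.0427), a call that was lost in 6 of 8 leave-outs. The 3 rises in Eµ-deleted cells became 5 without Eµ-deleted replicate 1, 1 without WT replicate 1 and 0 without WT replicate 2. The 2 in the CBE lines became 4 with the replicate block, 1 without either library of CBE line 1 and 0 without any single library of CBE line 2 or WT.

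In the Wnt pathway, whose Tcf/Lef factors exchange Groucho/TLE for beta-catenin when the signal is on, 12 of 21 genes were tested. In the CBE lines 3 rose against WT and none fell (25.0%, where 12.5% of all tested genes rose), 1 of the 3 being Axin2, which passed the filter through these lines alone. In Eµ-deleted cells 1 rose and 1 fell (8.33% each, below the 11.3% and 10.4% of all tested genes). The medians were 0.17 in the CBE lines and 0.20 in Eµ-deleted cells, against 0.03 and 0.01 over all tested genes. Axin2, a direct Wnt target and a brake on the pathway, had 0.327 and 0.331 FPKM in Eµ-deleted cells, 1.46 and 1.64 FPKM in CBE line 1, 2.29 and 2.30 FPKM in CBE line 2, and 0.00816 and 0.00427 FPKM in WT cells. Its differences of 1.53 in the CBE lines against WT and -1.12 in Eµ-deleted cells against the CBE lines had their direction fixed by the filter and are given without a test. Axin2 stayed below 1 FPKM in all libraries of Eµ-deleted cells and WT. Its rise between them (0.40, limma adjusted p = 0.0176) was lost without either WT library. The size of that rise depended on the pseudocount: it was 2.01 with 0.1, and 0.09 and not called with 5. Bcl9, which links beta-catenin to its coactivators, rose in the CBE lines by 0.77 (adjusted p = 0.00163) in every leave-out. Lgr5, a receptor that amplifies Wnt signals, had 0.123 and 0.165 FPKM in Eµ-deleted cells, 0.0323 and 0.0750 FPKM in CBE line 1, 2.79 and 2.20 FPKM in CBE line 2, and 1.28 and 2.25 FPKM in WT cells. Lgr5 is the 1 gene counted as lower in Eµ-deleted cells against WT. It passed the filter through CBE line 2 and WT alone, where it is high, and no Eµ-deleted library reached 1 FPKM. Its log2 difference of -1.25 is therefore given without a test. The 3 rises in the CBE lines became 5 with the replicate block or without either Eµ-deleted library, and 1 gene fell there without WT replicate 1 or with the block. The 1 rise in Eµ-deleted cells became 2 with the block or without Eµ-deleted replicate 1, and 0 without either WT library.

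Of 18 Notch pathway genes 7 were tested, and 1 rose in each comparison with WT and none fell (14.3% each, near the 11.3% in Eµ-deleted cells and 12.5% in the CBE lines of all tested genes that rose). The medians were 0.41 in Eµ-deleted cells and 0.31 in the CBE lines, against 0.01 and 0.03 over all tested genes. Rbpj, the DNA-binding partner of Notch, had 11.7 and 12.0 FPKM in Eµ-deleted cells, 8.52 and 9.05 FPKM in CBE line 1, 8.38 and 9.25 FPKM in CBE line 2, and 7.29 and 7.69 FPKM in WT cells. It rose in Eµ-deleted cells by 0.60 (limma adjusted p = 0.00576), a call that was lost without WT replicate 1. The receptor Notch2 had 0.344 and 0.292 FPKM in Eµ-deleted cells, 1.11 and 0.753 FPKM in CBE line 1, 0.960 and 1.06 FPKM in CBE line 2, and 0.276 and 0.257 FPKM in WT cells. It is the 1 gene counted as higher in the CBE lines, and it passed the filter through 1 library of each CBE line alone, so its difference of 0.63 is given without a test. With the replicate block each of these counts was 2. The count in Eµ-deleted cells was 3 without Eµ-deleted replicate 1, 2 without either library of CBE line 1 and 0 without WT replicate 1, and that in the CBE lines was 2 without either Eµ-deleted library or CBE line 1 replicate 2.

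The genes whose profiles over the 8 libraries lay closest to those of the family members were found by the root mean square difference of mean-centred log2(FPKM + 1) values. Closest to Aes was Mt1, a metallothionein, with a difference of 0.67 where the SD of the Aes profile itself was 1.98. Mt1 had 124 and 139 FPKM in Eµ-deleted cells, 4.17 and 5.81 FPKM in CBE line 1, 15.3 and 13.8 FPKM in CBE line 2, and was listed at 0 in both WT libraries. Gng4 (0.71), Jdp2 (0.73), Ydjc (0.84) and Rgs20 (0.86) followed, and of these Ydjc was as high in CBE line 2 (15.5 and 12.7 FPKM) as in Eµ-deleted cells (12.8 and 9.69 FPKM). Among those closest to Tle3 was Kirrel (0.12), where the SD of the Tle3 profile was 0.45. Closest to Tle4 were Nfkb1 and Mta2 (0.04 each, profile SD 0.14), and closest to Tle6 were Naip2 (0.20) and Erbb3 (0.21, profile SD 0.85). Naip2 had 1.16 and 0.742 FPKM in Eµ-deleted cells, 1.11 and 1.88 FPKM in CBE line 1, 0.788 and 0.865 FPKM in CBE line 2, and 4.93 and 4.94 FPKM in WT cells. Likeness over 8 libraries of 4 lines is a description of these profiles.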

How the data were processed

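RNA was measured in 8 libraries of 4 pro-B cell lines, made with a stranded poly(A) kit and read as single 75 bp reads, per the labels' protocols. The deposited values are FPKM with an interval and a status per gene entry, per the file headers. TopHat and Cufflinks on mm9 appear in the submitters' processing notes. Versions, settings and any use of strand in counting are not stated there, so overlapping genes are uncertain.

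Values of 277 symbols at several loci were added up, and 21 symbols whose status was not OK in every library were dropped. Genes with at least 1 FPKM in at least 2 libraries (10479) were fitted in R 4.3.3 by limma 3.58.1 to log2(FPKM + 1), as moderated contrasts with a mean-variance trend over all 8 libraries (4 residual and 2.65 prior degrees of freedom), Benjamini-Hochberg adjusted per comparison over all genes at a threshold of 0.05. Such p-values reflect only how the libraries of a line vary, and that variation may be technical. The procedure was tested on simulated data with independent noise in each library. That simulation leaves out the shared deviations of same-numbered libraries described below. Tables were handled with pandas 2.3.3 in Python 3.11.15. Implied reads are the square of FPKM over its SD, with the interval taken as 2 SD on each side. They assume that the intervals hold counting error only, which was not checked, so they are not counts of reads.

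The members and the gene lists were chosen with earlier results of these data known. Named from each list were up to 4 called genes per comparison with the largest differences, and always Hes1, Runx1, Pax5, Tcf7, Lef1, Axin2 and Hdac1. Gna11, Rag1 and Rag2 were named after their values were seen. Same-numbered libraries of different lines deviated together (correlations 0.28 to 0.50 over 6 pairs of lines), and the labels do not say what the number marks. The main fit left the number out, so its p-values ignore this pairing. A replicate block, which treats the numbers as pairs, was fitted as an alternative. The other alternatives tried were median-of-ratios and quantile scaling, pseudocounts of 0.1 and 5, dropping the filter or raising it to a mean FPKM of at least 5, no trend, only the libraries compared, the largest locus in place of the sum, and each library left out, where a line left with 1 library was assumed to vary like the others. A few genes are not reported here.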

Additional observations from a re-analysis of the deposited data

Results flagged for a closer look

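The pair of CBE lines share a labelled genotype, and 10.2% of all 10479 tested genes were called between them. Nothing is therefore read from the number of genes named here. Cell type markers, of which 2 of 15 tested were also called, are left out. The following genes of the family, the other lists and the window around Aes differed between the lines by a test of that difference itself (limma adjusted p under 0.05). Their log2 differences of CBE line 1 from CBE line 2 were -1.72 for Aes, -0.90 for Tcf7, -0.37 for Axin2, 0.64 for Apc, 0.98 for Gna15, 1.89 for Hhex, -1.73 for Lgr5, -1.23 for Matk, 0.88 for S1pr4, 0.70 for Smim24 and -0.35 for Znrf3. Matk and Znrf3 passed the expression filter only with the libraries of CBE line 2, where they are higher, so the direction of their differences was fixed and nothing is read from their calls. Lgr5 passed it through CBE line 2 and WT alone, where it is high, so nothing is read from its call either. The call of Aes held without any single library. Hhex was not called without CBE line 2 replicate 2, and Smim24 was not called without either library of CBE line 2. Tcf7 and Gna15 were not called without any single library of the CBE lines, and Axin2 and S1pr4 were not called without any single library of the CBE lines or WT. Apc was not called without CBE line 1 replicate 1 or either library of CBE line 2. What separates these lines was not tested.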

How the results depend on the processing

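The Tle6 falls in the CBE lines and the Aes difference between the CBE lines kept their direction and call in every alternative in which they were tested. Of the members' differences outside the contrast that chose them, Tle4 changed sign in Eµ-deleted cells against the CBE lines without Eµ-deleted replicate 1 (0.11) and between the CBE lines without CBE line 1 replicate 1 (0.04), and Tle3 between the CBE lines without CBE line 1 replicate 2 (-0.22), all uncalled; the cause was not tested. Tle3 in the CBE lines passed with the replicate block (0.54, adjusted p = 0.0487), and Tle3 (0.47) and Tle4 (-0.24) in CBE line 2 passed with only the libraries compared. Without single libraries Tle3 ranged from 0.36 to 0.72 in the CBE lines and 0.25 to 0.98 in CBE line 1 against WT, 0.40 to 0.76 in Eµ-deleted against the CBE lines and -0.22 to 0.51 between the CBE lines. Tle4 ranged from -0.20 to 0.11 and -0.09 to 0.04 in the last pair of comparisons, and Tle6 from 0.34 to 0.87 between the CBE lines.

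The numbers of called genes were 2284, 2339, 2033, 1960, 1301 and 1069 in Eµ-deleted, the CBE lines, CBE line 1 and CBE line 2 against WT, Eµ-deleted against the CBE lines, and CBE line 1 against CBE line 2. The replicate block gave 3563 for Eµ-deleted, 3142 for CBE line 1 and 3013 for CBE line 2 against WT, 2331 for Eµ-deleted against the CBE lines and 1736 between the CBE lines, and 2 members called in the CBE lines against WT; the block changed no other call of a member. A mean FPKM of 5 or more, which leaves Tle6 out, gave 1304, 1247, 1056, 1023, 535 and 369 in the same order as the first counts, and 0 members called in the 3 comparisons of CBE lines with WT. Only the libraries compared gave 1255 for Eµ-deleted and 3527 for CBE line 2 against WT, with 3 members called in the last. Without single libraries the counts ranged from 890 to 3317, 1022 to 2916, 903 to 2608, 950 to 2546, 718 to 2351 and 375 to 1373, and members called from 1 to 2 in the CBE lines jointly, in CBE line 1 and between the CBE lines, from 1 to 1 in CBE line 2, and from 0 to 1 in Eµ-deleted against the CBE lines. For the gene lists, counts under the block or without single libraries have no share of all tested genes by direction beside them. They describe only how stable the list counts are. With 2 libraries a line, and a few reads behind Aes in WT, small differences are not resolved.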
